A study of Mus musculus with 4 samples.

Results

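Leukocytes of MC38 tumors, a mouse colon carcinoma line, were compared between mice given a single antibody, called single antibody B here, and mice given an isotype control antibody. The members were the cells of these libraries in which 500 genes or more were detected and mitochondrial UMIs did not exceed 10%, where a UMI marks a single captured transcript probe. They were 14231 of the 28194 such cells in the 4 libraries of the series, 6083 in the library of single antibody B (the B library) and 8148 in the isotype library. The B library is titled as the antibody against mouse FcγRII, while its treatment field names the antibody against human CTLA-4. A further single-antibody library, A, carries the opposite pair of labels, so the records do not settle which antibody these mice received.

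Every group, controls included, used B-hCTLA-4 mice of the C57BL/6 host strain, in which the CTLA-4 gene is humanized. Each mouse carried a subcutaneous tumor of MC38 cells, and dosing began at tumors of about 100 mm3. The isotype control was a human IgG1 given at 10 mg/kg, and 3 intraperitoneal treatments were given before tumors were taken on day 8 of treatment. Single antibody B was either ipilimumab, a human IgG1 against human CTLA-4, at 10 mg/kg, or AT130-2 mIgG1-N297A, a mouse IgG1 against mouse FcγRII with a substitution that weakens Fc receptor binding, at 20 mg/kg. The combination of both antibodies made the fourth group. Tumors of 11 mice were pooled per group, separated on a density gradient meant for lymphocytes and sorted for live CD45+ cells, and the formaldehyde-fixed cells were read with the probe-based Chromium Flex assay. The article differs from these records in the number of tumors, the day, the starting size and the doses.

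FcγRIIb, encoded by Fcgr2b, is the inhibitory Fc gamma receptor of myeloid and B cells. It carries an inhibitory motif in its tail and opposes the activating receptors, which signal through the common chain Fcer1g. CTLA-4 is an inhibitory receptor found above all on regulatory T cells (Tregs), and antibodies with an active Fc part can remove Tregs from tumors through activating Fc receptors on macrophages. Tumor macrophages arise largely from blood monocytes, and the MHC class II molecules that they share with dendritic cells present peptides to CD4 T cells.

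With 1 pooled library per group, the spread between mice was not measured and no test between groups was possible, so antibody and library cannot be told apart. Each interval below is a 95% interval for counting error alone, and it is not adjusted over genes. A ratio is always B over isotype, with its interval in parentheses. The isotype library held 178178393 UMIs and the B library 142472286, with at least 1 UMI of Ptprc, the gene of CD45, in 97.4% and 97.7% of cells. Across the 4 libraries the totals ran from 129151823 to 196362818 UMIs. No full cell barcode was shared, but the isotype and B libraries shared 886 barcodes in their droplet part alone. The full barcode includes a part from the barcoded probe set, so it does not show whether the captures were separate. Values of A and the combination are given beside some results as a setting, since all comparisons with the isotype library share it.

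Each cell was placed in a class by the share of its UMIs on marker lists. Among the genes named below, Folr2, Apoe, Mrc1, Plac8, Chil3, Ccr2, Ace, Treml4, Xcr1, Clec9a, Cd209a, Ccr7, Cd4, Cd8a, Cd8b1, Eomes, Txk, Mmp9, Fcgr1, Fcgr3, Cd3e and C1qa were such markers. Cells past the limits for both lymphocyte and myeloid markers were set apart as mixed, and 14.7% of cells of the isotype library and 8.63% of the B library lay close enough to a limit to change class when the limits were moved by 1.5 times. The gate itself fixes that its markers are found in the class. Cd3e, a T cell receptor chain partner, had a UMI in 96.8% and 95.8% of T cells in the isotype and B libraries, and C1qa, a complement component of macrophages, in 95% and 96.4% of macrophages.

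Macrophages made up a larger share of the sorted cells in the B library, and monocytes, dendritic cells, T cells and neutrophils a smaller one. Macrophages were 55.4% of the isotype library (4510 cells) and 71.5% of the B library (4351 cells), a ratio of 1.29 (1.26 to 1.33). Monocytes went from 14.0% (1141 cells) to 8.22% (500 cells), a ratio of 0.587 (0.531 to 0.649). Thus 3.95 macrophages were counted per monocyte in the isotype library and 8.70 in the B library, beside 3.82 in A and 2.97 in the combination. The B library was the highest of the 4 by this measure, and the other 3 lay close to each other.

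Dendritic cells, which prime T cells, were 2.64% of the isotype library and 1.27% of the B library, with a ratio of 0.480 (0.371 to 0.621). T cells were 4.28% and 3.11%, with a ratio of 0.725 (0.610 to 0.863). The class of NK cells and ILC1, which are innate lymphocytes that secrete interferon gamma, was 3.60% and 3.24%, and its interval of 0.754 to 1.08 included 1. Neutrophils were few, 96 and 42 cells, at a ratio of 0.586 (0.408 to 0.841). Mast cells or basophils numbered 69 and 23, a ratio of shares of 0.446 (0.279 to 0.715), and B lymphocytes 21 and 9, a ratio of 0.574 (0.263 to 1.25). Mixed cells went from 16.5% to 9.52%. Their macrophage markers summed to 29654 and 30590 CPM, against 33940 and 37024 CPM in macrophages. With mixed cells and cells of no class left out of the total, the ratio of the macrophage share was 1.19. How far the limit between mixed cells and macrophages sets the macrophage share was not tested. Shares add up to the whole library, so a larger macrophage share lowers the sum of the others, and the number of cells per tumor was not analysed here.

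**Figure D1:**
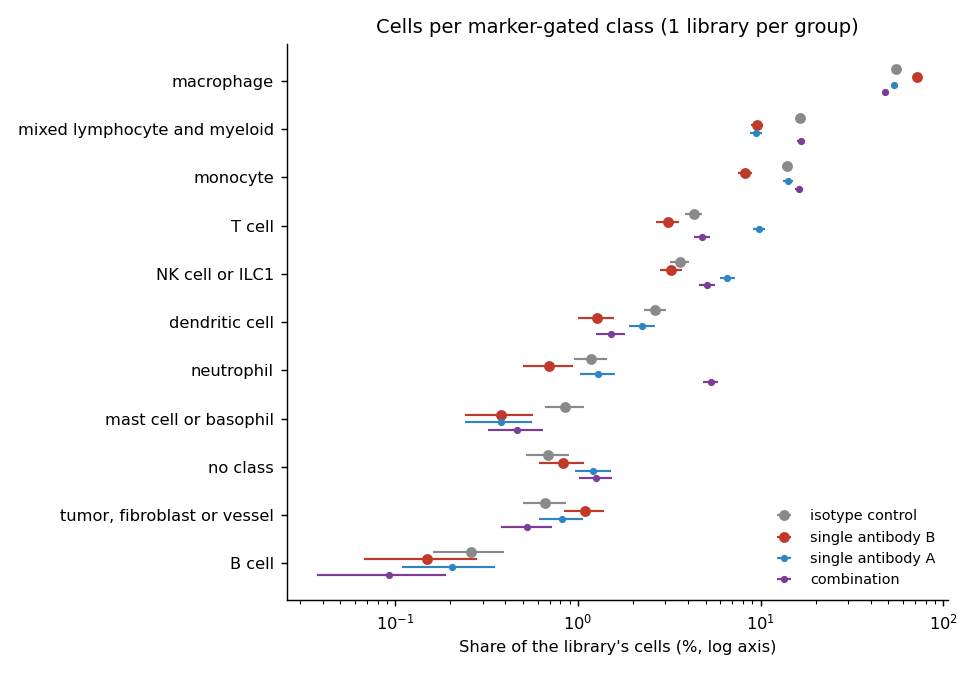
Share of sorted cells per class in percent, on a log axis, in the 4 libraries, with exact binomial 95% intervals for counting error. Macrophages are the largest class in the isotype control and single antibody B libraries, at 55.4% and 71.5%.

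Within macrophages, the transcripts for antigen presentation by MHC class II were lower in the B library, while 4 of 13 lipid-handling genes, among them Lpl and Spp1, were higher. Of 16 resident-like and alternatively activated genes, 4 were higher, among them Cbr2 and Folr2, and 3 were lower. UMIs were summed over the cells of a class and scaled to 1000000 UMIs of that class and library (CPM). A gene with at least 10 CPM in either library was called higher or lower when the ratio reached 1.5-fold and its interval left out 1. Of 8698 genes tested in macrophages, 52 were called higher (0.598%) and 145 lower (1.67%), and the median log2 ratio over all was -0.02.

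Of the 10 MHC class II genes listed, 9 were tested in macrophages, and 7 of them were lower and 0 higher. Their median log2 ratio was -0.84. H2-Eb1, the beta chain of I-E, went from 4288 to 2224 CPM, a ratio of 0.519 (0.516 to 0.521). H2-Aa and H2-Ab1, the chains of I-A, went from 4249 to 2307 CPM and from 3716 to 2001 CPM, with ratios of 0.543 and 0.538. Cd74, the invariant chain that escorts class II molecules, went from 10865 to 6053 CPM (ratio 0.557, 0.555 to 0.559). Ciita (ENSMUSG00000022504, chr16:10480059-10528418, GRCm38), the coactivator that switches the class II genes on, went from 158 to 81.8 CPM (ratio 0.516, 0.503 to 0.530). The chaperone genes H2-DMb1 and H2-DMb2 were also lower, at ratios of 0.662 and 0.564, while H2-DMa (0.729) and H2-Ob (0.725) did not reach the limit. H2-DMb1 lost its call, and the other 6 kept theirs, when the 2% of macrophages with the most UMIs of each gene were left out. In the A and combination libraries H2-Eb1 stood at 5169 and 5168 CPM, so the B library was the lowest of the 4.

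Promoters of 3 of these genes are shown because the class II genes moved together in macrophages. Class II promoters carry an X box and a Y box, bound by the RFX complex and by NF-Y, on which the Ciita protein assembles. RefSeq promoters of build GRCm38.p6, running from 250 bases before to 50 bases after the start, were taken for 7 of the 10 listed genes. Promoters of listed genes on 1 chromosome were left out by choice, and none was taken for H2-Ab1, Cd74 or Ciita. The Y box core GATTGG, on either strand, was in at least 1 promoter of each of the 7 genes. Counted per promoter instead of per gene, it was in 16.1% of 32851 promoters of the same length. H2-DMa had a promoter with 0 matches and another whose match began 199 bases before the start. A stricter X box pattern, also searched on both strands, was in 2 of the 7, H2-Eb1 and H2-DMb1, against 0.0304% (10 promoters). The following 3 promoters are 5′ to 3′ on the gene's strand, with the letters found in capitals (the first run of capitals in H2-Eb1 and H2-DMb1 is the X box pattern). They are H2-Eb1 at chr17:34305617-34305916 (plus strand), H2-DMb1 at chr17:34152941-34153240 (plus strand) and H2-Aa at chr17:34287774-34288073 (minus strand).
H2-Eb1: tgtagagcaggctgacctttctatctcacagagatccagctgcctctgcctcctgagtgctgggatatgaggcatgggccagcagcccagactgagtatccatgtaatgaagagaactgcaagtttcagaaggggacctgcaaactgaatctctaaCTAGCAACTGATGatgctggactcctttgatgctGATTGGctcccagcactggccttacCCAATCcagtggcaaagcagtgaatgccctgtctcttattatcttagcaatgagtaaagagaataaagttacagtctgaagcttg
H2-DMb1: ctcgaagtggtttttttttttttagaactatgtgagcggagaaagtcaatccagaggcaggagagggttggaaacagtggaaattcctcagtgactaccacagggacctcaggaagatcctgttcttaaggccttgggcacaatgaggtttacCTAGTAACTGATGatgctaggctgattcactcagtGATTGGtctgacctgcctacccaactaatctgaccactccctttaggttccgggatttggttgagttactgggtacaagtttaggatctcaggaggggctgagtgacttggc
H2-Aa: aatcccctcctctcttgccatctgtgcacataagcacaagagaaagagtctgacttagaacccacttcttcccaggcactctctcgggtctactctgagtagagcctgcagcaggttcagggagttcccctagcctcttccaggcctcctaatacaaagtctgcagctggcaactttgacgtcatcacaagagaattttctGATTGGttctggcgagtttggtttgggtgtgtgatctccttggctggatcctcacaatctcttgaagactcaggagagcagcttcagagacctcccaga
The Y box core began 60, 62 and 49 bases before the start of H2-Eb1, H2-DMb1 and H2-Aa, and the X box pattern 94 and 97 bases before that of H2-Eb1 and H2-DMb1. H2-Eb1 held a further core on the opposite strand. The letters do not overlap each other, and a match is a description of the sequence alone.

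The class II level was spread differently over cells. Summed over the list, the median macrophage held 17341 CPM in the isotype library and 3351 CPM in the B library, beside 21734 in A and 26893 in the combination. Macrophages under 1000 CPM were 17.9% in the isotype library and 37.7% in the B library. At the upper end, the top 10% of cells began at 64205 and 45546 CPM. High class II macrophages were thus still present in the B library, next to a larger number of macrophages with low class II levels.

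**Figure D2:**
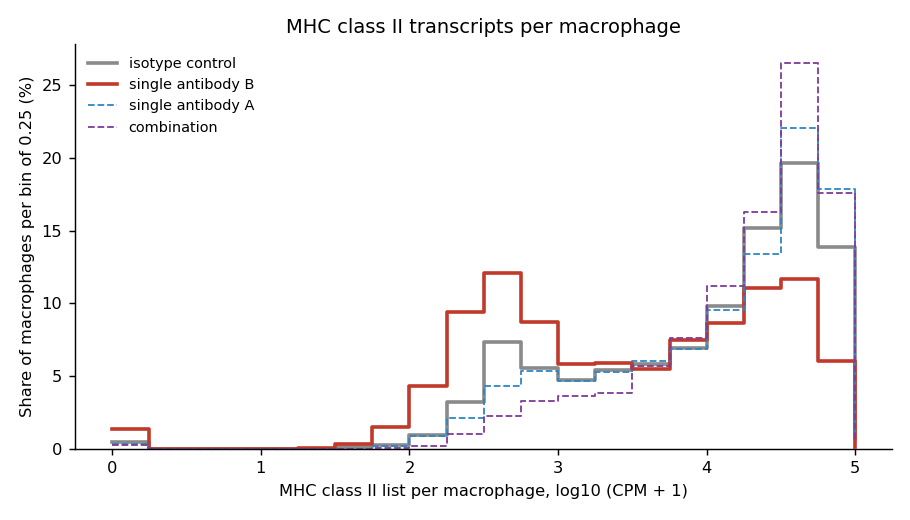
Distribution of the summed MHC class II CPM per macrophage, as log10(CPM + 1) on the x axis against the percentage of macrophages per bin on the y axis, for the 4 libraries. The B library has a low and a high peak of similar height, 12.1% of macrophages in the bin from 2.5 and 11.7% in the bin from 4.5. Cells under 1000 CPM are 37.7% in the B library and 17.9% in the isotype library.

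Class II levels also went with Folr2, the gene of folate receptor beta and a marker of resident-like macrophages. Macrophages with a Folr2 UMI had the lower class II sum in both libraries, 17288 against 31619 CPM in the isotype library and 8869 against 21923 CPM in the B library. Cells with Folr2 were also the deeper ones, at a median of 24376 against 14535 UMIs in the isotype library. The ratio of B to isotype was 0.513 among cells with Folr2 and 0.693 among cells without it. With the Folr2 cells left out, an alternative chosen after seeing the data, 1 class II gene, Ciita (0.637), still reached the limit of 1.5-fold, while H2-Eb1, H2-Ab1 and H2-Aa stood at 0.671, 0.686 and 0.699. In the alternatives that kept these cells, 5 to 7 class II genes were called lower.

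Macrophages with a detected Folr2 transcript made up a larger share in the B library. With each cell drawn down to 7715 UMIs, Folr2 was detected in 30.5% of 3962 in the isotype library and 46.8% of 4013 in the B library (ratio 1.54, 1.45 to 1.63). At full depth, Folr2 was detected in 39.0% and 57.0% of macrophages, and at the drawn depth none of 41 and 32 T cells held a Folr2 UMI, which allows shares of up to 7.32% and 9.38%. The median depth was 17809.5 and 20869 UMIs for macrophages and 3870 and 4223 for T cells. Folr2 itself went from 112 to 203 CPM (ratio 1.81, 1.77 to 1.85), and a gene that helps define the class is no independent result. Cbr2 (ENSMUSG00000025150, chr11:120729489-120732114, GRCm38), a carbonyl reductase typical of these cells, went from 77.6 to 207 CPM (ratio 2.66, 2.60 to 2.73). A and the combination had 109 and 46.4 CPM of Cbr2, so B was the highest library.

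The list of resident-like and alternatively activated genes did not move in 1 direction. Of 16 members tested, 4 were higher and 3 lower, with a median log2 ratio of 0.11. Besides Cbr2 and Folr2, the higher members were Igf1, a growth factor (23.9 to 41.9 CPM), and Retnla, a secreted product of alternatively activated macrophages (11.8 to 74.0 CPM). Retnla was found in only 1.42% of B macrophages and lost its call when, for each gene, the 2% of cells with the most of its UMIs were left out. The lower members were Chil3, a chitinase-like protein (128 to 60.4 CPM, ratio 0.472), Mgl2, a lectin of interleukin 4-activated cells (41.6 to 16.3 CPM, ratio 0.391), and Ccl24, an eosinophil attractant (18.7 to 12.3 CPM, ratio 0.655). Arg1, arginase 1, had 1734 and 1866 CPM, and Mrc1, the mannose receptor, 737 and 627 CPM, and neither was called.

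Lipid handling and scavenger genes were called higher in 4 of 13 members and lower in 0, with a median log2 ratio of 0.23. Spp1, osteopontin, went from 1006 to 1613 CPM (ratio 1.6, 1.59 to 1.62). Lpl, lipoprotein lipase, went from 41.0 to 71.5 CPM (ratio 1.74, 1.68 to 1.81). Cd36 and Olr1, which encode receptors for oxidized lipoproteins, had ratios of 1.56 and 1.62. Each of the 4 kept its call without its richest cells. Nr1h3, the sterol sensor LXR alpha and no member of the list, went from 39.9 to 72.6 CPM (ratio 1.82, 1.75 to 1.89). A and the combination had 843 and 808 CPM of Spp1, 39.5 and 76.8 CPM of Lpl, and 49.5 and 83.3 CPM of Nr1h3. B was thus the highest library for Spp1, while the combination was the highest for Lpl and Nr1h3. Without the macrophages that carried lymphocyte or dendritic cell markers, 1 lipid gene was called higher. That setting left out most of the class, 64.6% of isotype and 52.9% of B macrophages. When each cell was weighted equally, 2 lipid genes were called, with Lpl at a ratio of 1.52 and Spp1 at 1.40. The remaining genes named as higher were Wfdc17, a small secreted protein of activated macrophages (135 to 219.7 CPM), Rnf128, a ubiquitin ligase (37.1 to 62.9 CPM), and Serpinb6a, a protease inhibitor (155 to 249 CPM), with ratios of 1.63, 1.69 and 1.61.

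Interferon-induced genes leaned lower in B macrophages, with few calls. In the interferon gamma list, 2 of 20 members were lower (Gbp4, a guanylate-binding protein, and Ciita) and 0 higher, with a median log2 ratio of -0.36. Cxcl9, a chemokine for T cells, had 792 and 664 CPM (ratio 0.839, 0.831 to 0.848), below the limit. At equal depth it was detected in 43.0% of 3962 in the isotype library and 33.9% of 4013 in the B library (ratio 0.787, 0.744 to 0.833), beside 59.0% in A and 77.8% in the combination. Without drawing down these shares were 49.9% and 41.3%, and T cells at that depth held a Cxcl9 UMI in 19.2% of 41 and 11.8% of 32. Nos2, the inducible nitric oxide synthase, was detected in 15.7% and 12.3% of macrophages (ratio 0.786, 0.704 to 0.876) and in 2.04% and 2.96% of T cells. In A and the combination Nos2 was in 22.9% and 54.9% of macrophages. The B library was thus the lowest of the 4 for the shares of both genes, and the combination the highest. In the type I interferon list 0 of 17 members were called, with a median log2 ratio of -0.23.

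Genes of monocytes and lymphocytes were among the lowest in B macrophages. Plac8, a gene of blood monocytes used as a monocyte marker, went from 323 to 90.8 CPM (ratio 0.281, 0.275 to 0.288). Ccr2, the receptor that draws monocytes into tissue, was detected at equal depth in 69.4% of 3962 in the isotype library and 56.7% of 4013 in the B library (ratio 0.817, 0.790 to 0.845), with no class deep enough to serve as a background. Il2rb, an interleukin 2 receptor chain, Itgb7, an integrin of lymphocytes and dendritic cells, and Klrb1b, an NK cell lectin receptor, had ratios of 0.340, 0.510 and 0.530. Of the cytotoxic list, 5 of 8 members tested were lower (Gzma, Gzmb, Prf1, Nkg7 and Ccl5) and 0 higher, and of the Treg list 4 of 6. The summed T cell markers in macrophages went from 133 to 43.2 CPM over 15 genes, and the NK markers from 71.8 to 22.5 CPM over 10, with none at 0. With macrophages holding over 0.02% of their UMIs on lymphocyte or dendritic cell markers left out, an alternative chosen after seeing the data, 1 cytotoxic gene was called lower. This removed 2915 isotype and 2301 B macrophages and kept 1595 and 2050. In that setting 5 class II genes were called lower and 1 lipid gene higher, and Lpl and Spp1 had ratios of 1.37 and 1.35.

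Several lists showed no calls in macrophages. The 9 Fc gamma receptor genes and signal chain members, 19 cell cycle genes and 16 hypoxia and glycolysis genes had 0 calls each. Mki67, a marker of dividing cells, was detected at equal depth in 29.4% of 3962 in the isotype library and 29.3% of 4013 in the B library, a ratio of 0.996 (0.930 to 1.07). The MHC class I list had 1 of 12 members higher, B2m, and 1 lower, the nonclassical heavy chain H2-Q7. Of the naive and stem-like T cell genes 3 of 9 were lower, and each remaining list had at most 1 call in macrophages.

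**Figure D3:**
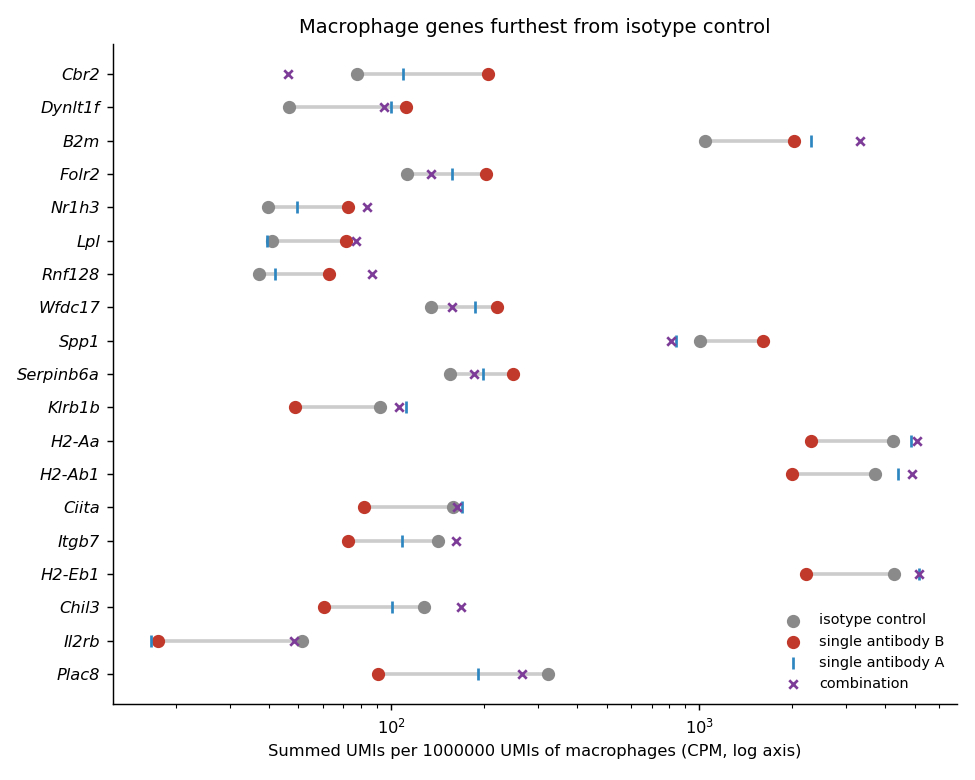
Summed CPM in macrophages of the genes named by the ordering rule, on a log axis, in the 4 libraries, with 1 value per library and no error bars. Among the genes drawn, the B point lies farthest below the isotype point for Plac8 (323 to 90.8 CPM) and farthest above it for Cbr2 (77.6 to 207 CPM).

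B2m, Dynlt1f and Shoc2 were lower in macrophages of the isotype library than in those of the other 3 libraries. They were not alone in this. In macrophages the same held for Folr2, Nr1h3, Rnf128, Wfdc17 and Serpinb6a, but not for Cbr2, Spp1 and Lpl. In monocytes, T cells and NK or ILC1 cells, every gene that the ordering rule named as higher was lowest in the isotype library. In monocytes, every gene it named as lower was highest there. B2m (ENSMUSG00000060802, chr2:122147686-122153083, GRCm38), the light chain of MHC class I, went from 1045 to 2022 CPM in macrophages (ratio 1.94, 1.92 to 1.95), with 2305 in A and 3314 in the combination. In the other 5 classes its ratio of B to isotype ranged from 1.94 in monocytes to 2.24 in NK or ILC1 cells. Dynlt1f, a dynein light chain gene, went from 46.5 to 112 CPM in macrophages (A 99.5, combination 94.7), and its ratio over the 5 classes in which it was tested ranged from 2.14 in NK or ILC1 cells to 2.56 in dendritic cells. Shoc2, a scaffold of Ras signaling, chosen after its values were seen, had 38.5, 60.8, 56.3 and 54.6 CPM in macrophages of the isotype, B, A and combination libraries. The class I heavy chains did not follow B2m, since H2-K1 had 862 and 718 CPM and H2-D1 263 and 263 CPM in macrophages of the isotype and B libraries. Whether these genes differ through the antibodies or through the isotype library was not tested.

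A smaller share of monocytes in the B library carried the nonclassical markers Ace and Treml4, and several matrix and lipid genes were higher. Nonclassical monocytes patrol vessels and express Ace, angiotensin-converting enzyme, and Treml4, a receptor of the TREM family. At 4539 UMIs per cell, Ace or Treml4 was detected in 45.9% of 1009 in the isotype library and 32.8% of 468 in the B library (ratio 0.714, 0.616 to 0.825), and without drawing down in 51.2% and 40.4%. T cells at that depth held an Ace UMI in 0.606% and 1.19%. Cells with Ccr2 and neither of these genes were 51.9% and 63.1% (ratio 1.21, 1.11 to 1.33). The share with Ace or Treml4 was 35.5% in A and 16.3% in the combination, so the isotype library was the highest of the 4.

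Of 8193 genes tested in monocytes, 158 were higher (1.93%) and 101 lower (1.23%), with a median log2 ratio of -0.02. Ace went from 895 to 403 CPM (ratio 0.450, 0.429 to 0.471), Adgre4, an adhesion receptor of nonclassical monocytes, from 304 to 159.7 CPM and Treml4 from 161 to 88.7 CPM, and Ace and Treml4 are class markers. The other lower genes named were Grk3, a receptor kinase, Eno3, an enolase, and Pglyrp1, a peptidoglycan-binding protein, at ratios of 0.550, 0.543 and 0.546. Timp1, an inhibitor of metalloproteinases, went from 25 to 84.7 CPM (ratio 3.39, 2.91 to 3.96), and Mmp12, macrophage elastase, from 305 to 903 CPM (ratio 2.96, 2.83 to 3.09). Il7r, the interleukin 7 receptor, went from 19.5 to 50.4 CPM (ratio 2.59). Mmp12 was found in 12.3% and 16.6% of monocytes of the isotype and B libraries, so a minority of cells carried these genes in either library. A and the combination had 53.7 and 78.9 CPM of Timp1, 692 and 2534 CPM of Mmp12, and 59.1 and 120 CPM of Il7r. All of these also lay above the isotype values.

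Of the matrix and protease list, 5 of 14 members were higher in monocytes and 1 lower (median log2 0.40), and the lower member was the collagenase Mmp13 (29.1 to 4.34 CPM). The lipid list had 6 higher and 2 lower of 14. Spp1 went from 637 to 1003 CPM (ratio 1.58), while Apoe, apolipoprotein E, went from 1534 to 962 CPM (ratio 0.627). Lpl and Mmp19, a metalloproteinase, had ratios of 2.71 and 2.26, and without the 2% of cells richest in each gene these became 0.863 and 1.43. In that setting the matrix and lipid lists had 3 higher members each. The 14 macrophage markers, Apoe among them, summed to 3016 and 2486 CPM in monocytes of the isotype and B libraries, with none at 0. Apoe made up 1534 and 962 CPM of these sums. The gate for monocytes also required a larger share of UMIs on monocyte markers than on macrophage markers, which limits the sum. The part of macrophage RNA in the matrix and lipid values was not tested.

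Monocyte-attracting chemokines were higher in 3 of 6 members, Ccl2, Ccl7 and Ccl24, and lower in 1, Ccl12. Ccl7 went from 22.5 to 97.4 CPM (ratio 4.32, 3.70 to 5.06), and it alone of the 4 kept its call without its richest cells. Oxidative stress genes were higher in 3 of 10 members: Slc7a11, the cystine importer (31.1 to 68.1 CPM), Srxn1, sulfiredoxin (22.4 to 39.8 CPM), and Fth1, the ferritin heavy chain (4273 to 6676 CPM). Each of these 3 kept its call. Inflammatory cytokines and chemokines were also higher in 3 of 10, namely Il1a, Cxcl2 and Cxcl3. Nr4a3, a nuclear receptor from the T cell exhaustion list, went from 4.94 to 95.4 CPM, in 36 and 22 cells, and lost its call without its richest cells. The class II list had 0 calls in 7 members tested, with H2-Eb1 at 2469.6 and 2709 CPM in monocytes.

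Dendritic cells of the B library had lower cell cycle and type I interferon transcripts in the sums. A few cells carried much of the cell cycle counts, and their direction turned in an alternative setting given below. The class held 215 and 77 cells. Its subsets lay close together, with Xcr1 or Clec9a, markers of type 1 dendritic cells, in 37.6% and 34.8% at 4218 UMIs per cell (ratio 0.926, 0.643 to 1.35). Cd209a, a marker of type 2 cells, was in 46.3% and 45.9% (ratio 0.993, 0.748 to 1.35), and Ccr7, the homing receptor of migratory cells, in 16.2% and 18.5% (ratio 1.14, 0.653 to 2.11). Without drawing down, these 3 shares were 45.1% and 45.5%, 50.2% and 50.6%, and 18.1% and 20.8%. T cells held an Xcr1 UMI in at most 1.08% and a Cd209a UMI in at most 1.07% of cells at that depth, and macrophages a Ccr7 UMI in at most 0.965%.

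Of 8603 genes tested in dendritic cells, 164 were higher (1.91%) and 389 lower (4.52%). Of 17 cell cycle genes, 10 were lower and 0 higher, with a median log2 ratio of -1.54 beside -0.04 over all genes. Top2a, topoisomerase II alpha, went from 106 to 3.85 CPM (ratio 0.0364, 0.00744 to 0.108), and Mki67 from 112 to 36.0 CPM (ratio 0.320, 0.208 to 0.475). The replication histone genes Hist1h1b, Hist1h2ap and Hist1h2ae and the ribonucleotide reductase gene Rrm1 had ratios of 0.147, 0.227, 0.229 and 0.268. However, 5 isotype cells held 44.5% of the list's UMIs. The share of cells with at least 10 UMIs on the list was 18.1% in the isotype library and 23.4% in the B library, and Mki67 at equal depth was found in 10.5% of 193 in the isotype library and 6.68% of 69 in the B library (ratio 0.633, 0.273 to 1.79).

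When cells were drawn down to 2000 UMIs before they were placed in classes, 0 cell cycle genes were lower, and Top2a had a ratio of 8.86 in the opposite direction. In that setting 13 cells of the B library that otherwise fell in no class entered the dendritic class and held 54.7% of its UMIs. The type I interferon list had 7 of 17 members lower, among them Ifit3 (121 to 52.7 CPM) and Rsad2 (98.6 to 39.8 CPM), antiviral proteins, and 1 member remained without each gene's richest cells. The interferon gamma list had 3 of 20 members higher in dendritic cells, Cxcl9 (375 to 658 CPM) and the interferon-induced GTPases Gbp2 and Iigp1, and 1 lower, Nos2. Among the other named genes, Emp1, a membrane protein (44.4 to 125 CPM), Marcksl1, an actin regulator (427 to 882 CPM), Lmna, lamin A (73.3 to 172 CPM), and Serpinb1a, a protease inhibitor (66.4 to 154 CPM), were higher. The 14 macrophage markers summed to 785 and 529 CPM in dendritic cells (0 and 3 at 0), and 4 of 9 complement genes, which macrophages express, were lower, of which 2 kept the call without each gene's richest cells. Their part in the other values was not tested. The class II list had 0 calls in 10 members, with H2-Eb1 at 9801 and 9909.7 CPM in dendritic cells.

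**Figure D4:**
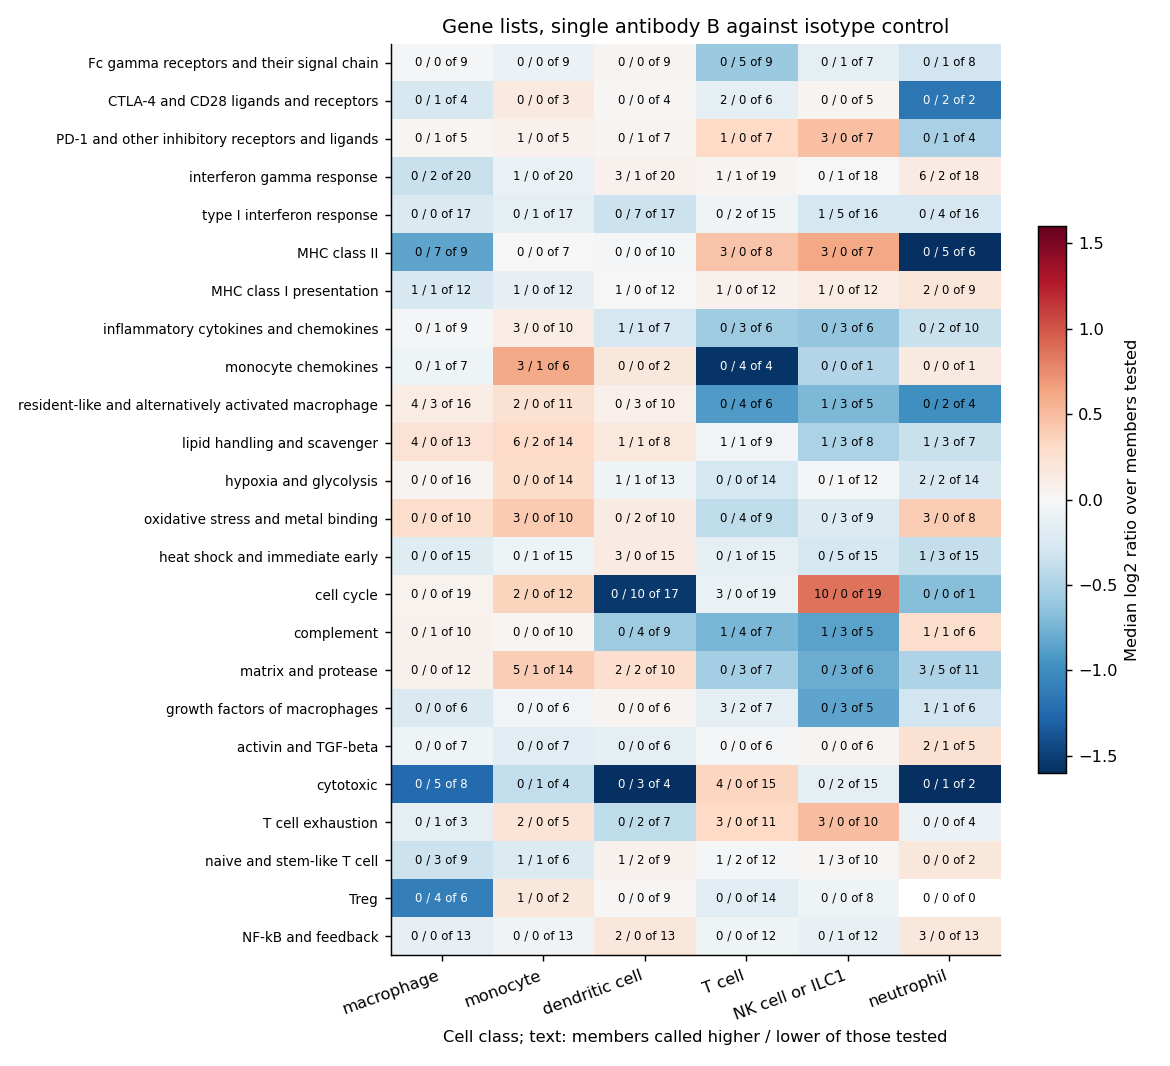
Median log2 ratio of B to isotype for each gene list (y axis) in each class (x axis), with colors saturating past the ends of the bar, and in each cell the number of members called higher, called lower and tested. MHC class II is lower in macrophages (7 of 9) and in neutrophils (5 of 6, in few cells), and cell cycle is lower in dendritic cells (10 of 17) and higher in NK or ILC1 cells (10 of 19), while 0 cell cycle genes were lower in dendritic cells when cells were drawn down to 2000 UMIs before classes were set.

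Summed over the T cell class, Prf1, some granzymes and Lag3 were higher in the B library. Mixed cells, of which 85.3% and 83.1% held a Cd3e UMI in the isotype and B libraries, are not in this class. They numbered 3.85 per T cell in the isotype library and 3.06 in the B library, beside 0.971 in A and 3.50 in the combination. The T cell results below leave them out. The interval for the Treg share of CD4 T cells included no change. At 2116 UMIs per cell, Foxp3, the transcription factor of Tregs, was detected in 39.3% of 141 in the isotype library and 41.1% of 58 in the B library among CD4 T cells (ratio 1.05, 0.721 to 1.5). The A and combination libraries had 19.1% and 6.60%, both below the isotype and B libraries. As a share of all cells of a library the order differed. These Tregs were 0.687% of the isotype library, 0.395% of B, 0.597% of A and 0.0658% of the combination, so B lay below A. Without drawing down, the isotype and B shares were 41.4% and 47.1%, and monocytes held a Foxp3 UMI in 0.0716% of 1121 cells of the isotype library and in 0 of 493 of the B library, which allows a share of up to 0.609%. Of the 14 Treg genes tested, 0 were called, and Foxp3 had 423 and 363 CPM in T cells.

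CD8 cells were 28.1% of 317 in the isotype library and 35.5% of 167 in the B library among T cells (ratio 1.27, 0.960 to 1.65), and CD4 cells 44.5% and 34.7% (ratio 0.780, 0.613 to 0.994). At 2116 UMIs per cell, CD8 cells per Treg numbered 1.59 in the isotype library (89 and 56 cells) and 2.46 in the B library (59 and 24 cells), beside 7.29 in A and 33 in the combination. These cell numbers are rounded expected numbers after drawing down. Without drawing down there were 95 CD8 cells and 72 Tregs in the isotype library, and 68 and 33 in the B library. No interval was taken for CD8 cells per Treg. Of the values at 2116 UMIs, that of B lay closest to the isotype value. Mki67 was found in 13.2% and 13% of T cells, and Ifng, interferon gamma, in 24.9% and 30.9% (ratio 1.24, 0.930 to 1.68), against at most 0.178% of monocytes.

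Of 8726 genes tested in T cells, 208 were higher (2.38%) and 318 lower (3.64%), with a median log2 ratio of -0.03. In the cytotoxic list 4 of 15 were higher and 0 lower (median log2 0.35). Gzmc and Gzmf, granzymes of activated killer cells, went from 169 to 510.0 CPM and from 157 to 492 CPM, with ratios of 3.02 (2.61 to 3.50) and 3.14 (2.70 to 3.66). Gzmf was found in only 7 and 8 T cells of the isotype and B libraries. Prf1, perforin, went from 228 to 353 CPM (ratio 1.55, 1.34 to 1.79) in 20.9% and 29.6% of cells. The fourth, Gzmd, was found in 5 and 4 cells, and Gzmb, with 1222 and 1422 CPM, was not called. In the same sums Cd8b1 went from 611 to 937 CPM, Cd8a from 521 to 710 CPM and Cd4 from 516 to 389 CPM. Levels within CD8 cells were not measured. The part of the CD8 share in these values, and in those of the exhaustion list below, was not tested.

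The exhaustion list had 3 of 11 members higher and 0 lower. Lag3, an inhibitory receptor, went from 426 to 672 CPM (ratio 1.58, 1.42 to 1.76), Rgs16, a G protein regulator, from 351 to 551 CPM (ratio 1.57), and Eomes, a transcription factor of effector cells, from 32.7 to 53.7 CPM (ratio 1.64). Pdcd1 (PD-1) and Havcr2 (TIM-3) had ratios of 1.32 and 1.45 and were not called. The genes named by the ordering rule were Klrc1, the inhibitory receptor NKG2A (360.2 to 636 CPM), Txk, a kinase of T and NK cells (83.9 to 165 CPM), Serpinb9, the granzyme B inhibitor (109.5 to 206 CPM), Arsb, a lysosomal sulfatase (96.4 to 191 CPM), and Cd86, a ligand of CD28 and CTLA-4 (36.3 to 80.1 CPM). Klrc1 was detected in 24.9% and 38.1% of T cells. The NK marker list, of which Txk and Eomes are members, summed to 766 and 1334 CPM in T cells, with none at 0.

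Several of the genes named as lower in T cells are genes of macrophages. Apoe went from 377 to 148 CPM and Arg1 from 139.9 to 49.8 CPM, and Pld4 and Mpeg1, of phagocyte lysosomes, and Dab2, an endocytic adaptor, had ratios of 0.258, 0.333 and 0.363. Hist1h1a, a linker histone, was also lower (92.3 to 34.2 CPM). The 14 macrophage markers summed to 920.3 CPM in T cells of the isotype library (1 at 0) and 429.9 CPM in those of the B library (none at 0). Along with them, 5 of 9 Fc receptor genes, 4 of 4 monocyte chemokines and 4 of 7 complement genes were lower. The part of macrophage RNA in these values was not tested. An alternative left out T cells with over 0.5% of their UMIs on macrophage markers, which were 3 isotype cells and 1 B cell. In it 39.1% of calls were higher, against 39.5%. Leaving out so few cells cannot decide that part. Without each gene's richest cells, 151 of the 208 higher and 222 of the 318 lower genes kept their calls.

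NK and ILC1 cells of the B library had higher cell cycle transcripts and inhibitory receptors and lower Ifng. Of 8699 genes tested, 285 were higher (3.28%) and 289 lower (3.32%). Cell cycle genes were higher in 10 of 19 members and lower in 0, with a median log2 ratio of 0.87 beside -0.02 over all genes. Cdk1, the mitotic kinase, went from 17.4 to 88.0 CPM (ratio 5.07, 3.33 to 7.96), in 4.44% and 12.7% of cells. Top2a went from 76.2 to 217 CPM (ratio 2.85, 2.30 to 3.55), and the histone genes Hist1h2ae and Hist1h2ap had ratios of 3.76 and 3.14. In the B library 5 cells held 50.1% of the list's UMIs, against 30.2% in the isotype library. Cells with at least 10 such UMIs were 13% and 14.7%, and Mki67 at equal depth was in 5.66% and 8.30% (ratio 1.47, 0.720 to 2.86). With each cell weighted equally, 6 cell cycle genes were higher.

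Inhibitory receptors and their ligands were higher in 3 of 7 members and lower in 0. Pdcd1 went from 71.9 to 155 CPM (ratio 2.15, 1.71 to 2.73), Lag3 from 121 to 219 CPM (ratio 1.81, 1.5 to 2.18) and Tigit, a receptor for nectins, from 8.68 to 19.0 CPM (ratio 2.19), and each kept its call without its richest cells. That setting left out 6 isotype and 4 B cells of the class per gene. It can also move a ratio away from 1, as for Cdk1 (5.07 to 8.22), so a kept call is weak support. The 15 T cell markers summed to 1530 and 1789 CPM in this class, with 3 and 2 at 0. Their part in these values was not tested. In the cytotoxic list 2 of 15 were lower, Ifng (327 to 206 CPM, ratio 0.630 (0.542 to 0.730)) and Gzmg, a granzyme found in 7 and 4 cells. The share of cells with an Ifng UMI at equal depth was 37.5% and 33.8% (ratio 0.900, 0.691 to 1.16). Klf2, a factor of resting lymphocytes in the naive and stem-like list, went from 351 to 195 CPM (ratio 0.556).

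ILC1-marked cells, with Itga1 or Cd200r1 and no Eomes, were 13.4% and 17.3% of the class (ratio 1.29, 0.816 to 1.98), while monocytes held an Itga1 UMI in 8.31% and 7.33% and a Cd200r1 UMI in 7.45% and 8.77% of cells at the same depth. These background shares were taken per gene and without the condition of no Eomes. They therefore cannot decide whether the ILC1-marked shares exceed background. Eomes, which marks conventional NK cells, was in 51.1% and 45.0% (ratio 0.881, 0.716 to 1.07), and in 69.6% and 70.1% without drawing down. The type I interferon list had 5 of 16 members lower and 1 higher in NK or ILC1 cells. Heat shock and immediate early genes were lower in 5 of 15, and 0 of these kept the call without their richest cells. The lower genes named were Hmox1, heme oxygenase 1, Fn1, fibronectin, Tgfbi, a matrix protein, Mpeg1, Hspa1b, a heat shock protein, and Lta, lymphotoxin alpha (286 to 99.4 CPM). Lta was detected in 17.7% and 17.8% of cells of the isotype and B libraries. The 5 richest cells held 64.5% of its UMIs in the isotype library and 47.3% in the B library. Hmox1, Fn1, Tgfbi and Mpeg1 are genes of macrophages, whose 14 markers summed to 459.9 CPM in isotype NK or ILC1 cells (none at 0) and 225 CPM in those of the B library (2 at 0). The 11 neutrophil markers summed to 311 and 6.07 CPM there, with 1 and 6 at 0. Their part in these values was not tested. Among the higher genes Serpine2, a protease inhibitor, went from 28.5 to 103 CPM.

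**Figure D5:**
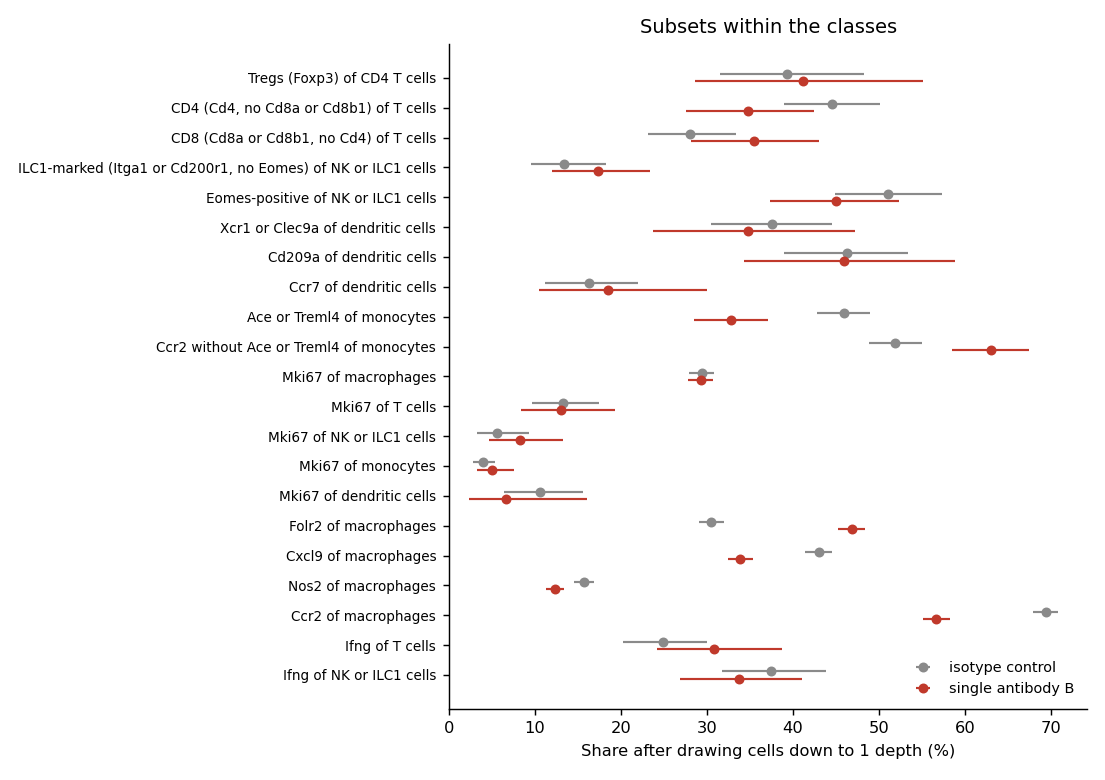
Share of cells of a class with a UMI of the defining genes, after each cell was drawn down to the same number of UMIs, in percent on the x axis with exact binomial 95% intervals, for the isotype control and single antibody B libraries. Folr2 in macrophages is higher in B (30.5% and 46.8%), Ace or Treml4 in monocytes is lower (45.9% and 32.8%), and Tregs lie close together (39.3% and 41.1%).

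Neutrophils gave the least certain values, from 96 cells of the isotype library and 42 of the B library. Of 2973 genes tested, 312 were higher (10.5%) and 260 lower (8.75%), and with library sizes set by the median of gene ratios 241 were higher and 344 lower, a shift of 0.0990 on the log2 scale. Without each gene's richest cells, 103 of the 312 higher and 193 of the 260 lower genes kept their calls. The interferon gamma list had 6 of 18 members higher and 2 lower. Cxcl10, a chemokine for activated T cells, went from 98.9 to 605 CPM (ratio 6.11, 4.10 to 9.34), in 13 and 10 cells, and 5 cells of the B library held 58.4% of the list's UMIs. The type I list had 4 of 16 members lower, among them Rsad2 (2107 to 933 CPM) and Isg15, a ubiquitin-like protein (1889 to 1066 CPM).

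MHC class II genes were lower in 5 of 6 members in neutrophils, but 5 cells held 92.3% and 94.5% of their UMIs, and H2-Eb1 turned from 0.212 to 2.20 under stricter limits of the classes. The matrix list had 3 of 11 members higher and 5 lower, with Mmp9, gelatinase B and a class marker, at 1669.7 and 6094 CPM. The other genes named as higher, Hexa and Npc2, lysosomal proteins, and Slc39a1, a zinc transporter, had ratios of 6.20, 4.28 and 5.52, and 0.873, 0.597 and 1.49 without their richest cells. Hspa1a, a heat shock protein, and S100a4, a calcium-binding protein, were lower, at ratios of 0.0331 and 0.123. Hspa1a was found in 10 isotype and 2 B cells, and 5 isotype cells held 94.8% of its isotype UMIs. S100a4 was found in 13 and 6 cells, 13.5% and 14.3% of the class. Fam49a, a regulator of actin, had 95.9 CPM in neutrophils of the isotype library and 0 UMIs in those of the B library.

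The genes of the receptors named on the labels were present in both libraries. Fcgr2b (ENSMUSG00000026656, chr1:170958617-170976547, GRCm38) had 1224 and 1205 CPM in macrophages, a ratio of 0.984 (0.976 to 0.992), and a UMI was found in 98.6% and 99.2% of cells. Monocytes had 883 and 1020.4 CPM, a ratio of 1.15 (1.12 to 1.19), and dendritic cells 288 and 232 CPM. Levels in T cells were low, 74.4 and 47.9 CPM, and moved with the macrophage markers there. Across the 4 libraries Fcgr2b in macrophages ranged from 1084 CPM in the combination to 1224 CPM in the isotype library, with A at 1218.

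Among the activating receptors in macrophages, Fcgr1 had 684 and 623 CPM, Fcgr3 1175 and 1117 CPM, and Fcgr4 552 and 460.4 CPM, with ratios of 0.911, 0.951 and 0.834. Fcer1g, their common chain, had 3449 and 3518 CPM. None reached 1.5-fold. Fcgr4 was the lowest in B of the 4 libraries, since A had 795 and the combination 761 CPM in macrophages.

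Ctla4 had 284 CPM in T cells of the isotype library (Poisson interval 259 to 311) and 226 CPM in those of the B library (198 to 257), a ratio of 0.795 (0.676 to 0.932). A and the combination had 146 and 141 CPM, so the B value lay between the isotype value and both of these. In mixed cells Ctla4 went from 52.9 to 62.8 CPM. The mice carry a humanized CTLA-4 gene, and how well the mouse probes read its transcript was not tested.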

How the data were processed

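The authors deposited 1 matrix of UMI counts per library, made with Cell Ranger from Chromium Flex probe reads on mm10. Its version is 7.2.0 in the file headers and 7.0.0 in the submitters' processing notes. The counts are filtered for cells and not normalized, the authors' later removal of doublets and low-quality cells is not part of them, and doublets were not removed here. Cells with at least 500 genes and at most 10% mitochondrial UMIs were kept. Of 19059 genes, 6 symbols carried by more than 1 gene were left out.

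Cells were placed in classes by the percent of UMIs on marker lists, with limits set after looking at the data. UMIs were summed per class and library as CPM. A gene was tested with at least 10 CPM in 1 of the libraries and 30 UMIs over both, and called at 1.5-fold with an exact conditional 95% interval that left out 1. Shares have exact binomial intervals and their ratios log intervals. All intervals cover counting error only, so the depth of a class sets their width. Subset shares were taken after each cell was drawn down to the depth of the class's 10th percentile cell, with shallower cells left out. In each class the genes named were those with the largest ratios in each direction, ordered by the interval bound nearest to 1, among called genes with at least 50 CPM and detection in at least 10% and 10 of the cells of the higher library, 10 each way in macrophages, 6 in monocytes, dendritic, T and NK or ILC1 cells, and 4 in neutrophils, beside the receptors on the labels, the class markers and up to 3 members each way of each gene list. A gene that this rule names in macrophages is not reported here. Further list members, and Shoc2, H2-K1 and H2-D1, were named after their values were seen. The members and lists were chosen with earlier results of these data known. No test between groups was made. Alternatives were other limits, filters, scalings, folds, and drawing to 2000 UMIs before classes were set. Another left out T cells, NK or ILC1 cells and neutrophils rich in macrophage markers. Chosen after seeing the data were 3 more that left out cells. Python 3.11.15, numpy 2.4.6, scipy 1.17.1, pandas 2.3.3, scanpy 1.11.5 and matplotlib 3.10.9 were used, and steps were tested on simulated data.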

Additional observations from a re-analysis of the deposited data

Results flagged for a closer look

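Cell cycle genes had opposite directions in 2 classes of the same pair of libraries, but the direction in dendritic cells depended on the processing. Their median log2 ratio of B to isotype was 0.87 in NK or ILC1 cells and -1.54 in dendritic cells. Top2a had a ratio of 2.85 in NK or ILC1 cells and 0.0364 in dendritic cells, Hist1h2ae 3.76 and 0.229, and Hist1h2ap 3.14 and 0.227. In the library where each class was higher, 5 cells held 50.1% of the list's UMIs in NK or ILC1 cells and 44.5% in dendritic cells, so that a few cells carried much of both values. When cells were drawn down to 2000 UMIs before classes were set, the ratios in dendritic cells were 8.86 for Top2a, 4.30 for Hist1h2ap and 2.89 for Hist1h2ae, the same direction as in NK or ILC1 cells, and 0 cell cycle genes were lower. In that setting 13 B cells that otherwise fell in no class held 54.7% of the UMIs of the B dendritic class. Such cells held 4.47% in the isotype library. Hist1h2ap and Hist1h2ae in dendritic cells also lost their calls, in the main classes, without their richest cells.

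The median log2 ratio of matrix and protease genes also had opposite signs, 0.40 in monocytes and -0.50 in neutrophils. In neutrophils, with 96 and 42 cells, the list was split, with 3 of 11 members higher and 5 lower, and Mmp9 went from 1669.7 to 6094 CPM. Without each gene's richest cells, 3 of the 5 higher members kept their call in monocytes. In neutrophils 0 higher and 3 lower members did. Neither difference between classes was tested, since each class comes from 1 library per group.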

How the results depend on the processing

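No paired analysis was possible because each group is 1 pooled library. Without replicates, depth and cell number set only the counting error, and the intervals are widest in neutrophils and dendritic cells. Of 47 alternative values of class shares 44 moved by less than their interval, as did 62 of 63 of subset shares. Of 71 alternative gene counts 56 stayed within 1.5 times, as did 99 of 117 counts of list members. Of 27 for Fcgr2b and Ctla4, 19 stayed within the interval, and of 679 for named genes 634 kept the call. The cause of each move below was not tested, unless fewer cells or genes make it.

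With limits of the classes 1.5 times higher, the ratio of the macrophage share was 1.23, cytotoxic genes lower in macrophages 8, cell cycle genes lower in dendritic cells 6, class II genes lower in neutrophils 0 with H2-Eb1 at 2.20, and Fcgr2b in monocytes 1.2. With limits 1.5 times lower, the macrophage share ratio was 1.36, Tgfbi in NK or ILC1 cells 1.82, and in neutrophils 2 interferon gamma genes were higher and 1 class II gene lower, with H2-Eb1 at 1.13 and S100a4 at 1.2. Without mixed cells and cells of no class in the denominator, the macrophage share ratio was 1.19. With at least 2 UMIs required, the ratio of the Ace or Treml4 share was 0.607.

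Drawing cells down to 2000 UMIs before setting classes gave 4770 called genes in dendritic cells against 553, 0 cell cycle and 15 type I interferon genes lower, and turned Top2a (8.86), Hist1h1b (6.94), Hist1h2ap (4.30), Rrm1 (3.34), Mki67 (3.25), Hist1h2ae (2.89) and Serpinb1a (0.981). Cells that otherwise fell in no class then held 54.7% of the UMIs of dendritic cells in the B library and 4.47% in the isotype library. The same setting gave Tgfbi 2.22 and Fn1 1.18 in NK or ILC1 cells and Fcgr2b 1.21 in monocytes. Weighting cells equally left 2 lipid genes higher in macrophages and 6 cell cycle genes higher in NK or ILC1 cells.

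Fcgr2b in macrophages was 0.970 without the highest doublet scores, 1.00 with scaling by the median of gene ratios, 0.972 with cells weighted equally, 0.931 without marker-bearing macrophages, 0.958 without Folr2 cells and 1.01 without each gene's richest cells. In neutrophils the share of calls that were higher was 54.5%, 41.2% with scaling by the median of gene ratios, and 30.3% without each gene's richest cells.

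A minimum of 50 CPM gave 50 called genes in macrophages, 86 in monocytes, 249 in dendritic cells, 236 in T cells and 219 in NK or ILC1 cells. No minimum gave 1261 in macrophages and 474 in monocytes. A 2-fold limit gave 77, 55, 247, 203, 260 and, in neutrophils, 350. The main counts in the same order were 197, 259, 553, 526, 574 and 572.

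Among alternatives chosen after seeing the data, leaving out macrophages with lymphocyte or dendritic cell markers left 1 cytotoxic gene lower and 1 lipid gene higher. These were 64.6% of isotype and 52.9% of B macrophages. Leaving out macrophages with Folr2 left 1 class II gene lower. Leaving out each gene's richest 2% of cells left 3 lipid and 3 matrix genes higher in monocytes, with Lpl at 0.863, 5 cell cycle and 1 type I interferon gene lower in dendritic cells, 3 type I genes lower in NK or ILC1 cells, and 379 called genes in neutrophils, with 2 class II genes lower, Hexa at 0.873 and Npc2 at 0.597.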
